A study of Sus scrofa with 8 samples.

Results

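Messenger RNA of 9 genes of glucose metabolism was followed in the endometrium, the inner lining of the uterus, of 4 pregnant and 4 non-pregnant gilts (young female pigs) on day 14 after insemination. The genes were PCK1, PCK2 and FBP1 for glucose synthesis, HK1, HK2, PFKP, PFKFB3 and LDHA for glucose breakdown, and PDK4 for the fate of pyruvate. They were found by Entrez gene ID among 21064 genes with RNA-seq counts. All 9 matched, each had 1 transcript in the tables, so the rule of taking the transcript with the highest mean count left nothing to choose, and all 9 passed the filter on low counts. The set was put together with earlier results of these counts known. PCK1 was selected on its measured rise, the difference in counts between pregnant and control libraries, and its change is given below as a description with no test.

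All animals were German Landrace gilts that had not reached puberty and had been given 750 IU of PMSG and, 72 h later, 500 IU of hCG, gonadotropins that bring on and time ovulation. Pregnant gilts were inseminated with Pietrain semen 24 h and 36 h after hCG, and controls with cell-free supernatant of semen from the same boar. Endometrium of pregnant gilts was cut from reddened zones of embryo attachment and that of controls from matching places, so pregnancy and the choice of zone cannot be told apart. RNA from 3 places along 1 uterine horn was pooled for each animal, and each library stands for 1 animal. Total counts ran from 28035007 to 41016150 per library. Transcripts of stroma (decorin, DCN, 906 ± 172 CPM in controls) and epithelium (keratin KRT8, 1257 ± 251 CPM) were abundant, as the tissue label states. CPM (counts scaled to a library of fixed size after TMM normalization) are given as mean ± SD with n = 4 per group. Log2 changes are pregnant over control ± SE.

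Cells break glucose down in glycolysis. Hexokinases (HK) trap it as a phosphate, phosphofructokinases (PFK) commit it to breakdown, and lactate dehydrogenase (LDH) turns the end product pyruvate into lactate. Gluconeogenesis runs the other way and needs its own enzymes where glycolysis cannot be reversed: phosphoenolpyruvate (PEP) carboxykinase, in the cytosol (PCK1) or in mitochondria (PCK2), fructose bisphosphatase (FBP) and glucose 6-phosphatase (G6PC). PCK1 is best known from liver, kidney and fat, where it also feeds glycerol synthesis and drains the citrate cycle. Pig uterine secretions supply the free-floating conceptus (the embryo with its membranes) with glucose and fructose before the placenta forms.

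In pregnant endometrium 6 genes of the set stood higher, with no overlap between the groups: PCK1, FBP1, PFKFB3, LDHA, PDK4 and PFKP. Both directions of the pathway were among them. PCK1 went from nearly no reads to a level like that of PFKFB3 and LDHA, whereas HK1, the main hexokinase, differed by 0.02 ± 0.13 on the log2 scale. In bulk tissue fewer cells of a type and less RNA per cell cannot be told apart. Among all 18783 transcripts tested, 21.3% passed an adjusted p of 0.05 in either direction (11.2% as higher and 10.1% as lower), and the groups did not overlap for 26.1% (13.2% with pregnant gilts higher and 12.9% with them lower). Of the 8 genes other than PCK1, 5 passed, all higher, and 0 passed as lower. HK2, the member with a negative log2 change, had an unadjusted p of 0.012 by edgeR, and 1 gene (HK2) passed as lower with DESeq2 and 0 with limma voom. Because the set was chosen with these changes known, this share is no evidence of its own. The median log2 change was 0.62 over the 9 genes and 0.56 without PCK1, beside −0.02 over all transcripts tested.

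**Figure D1:**
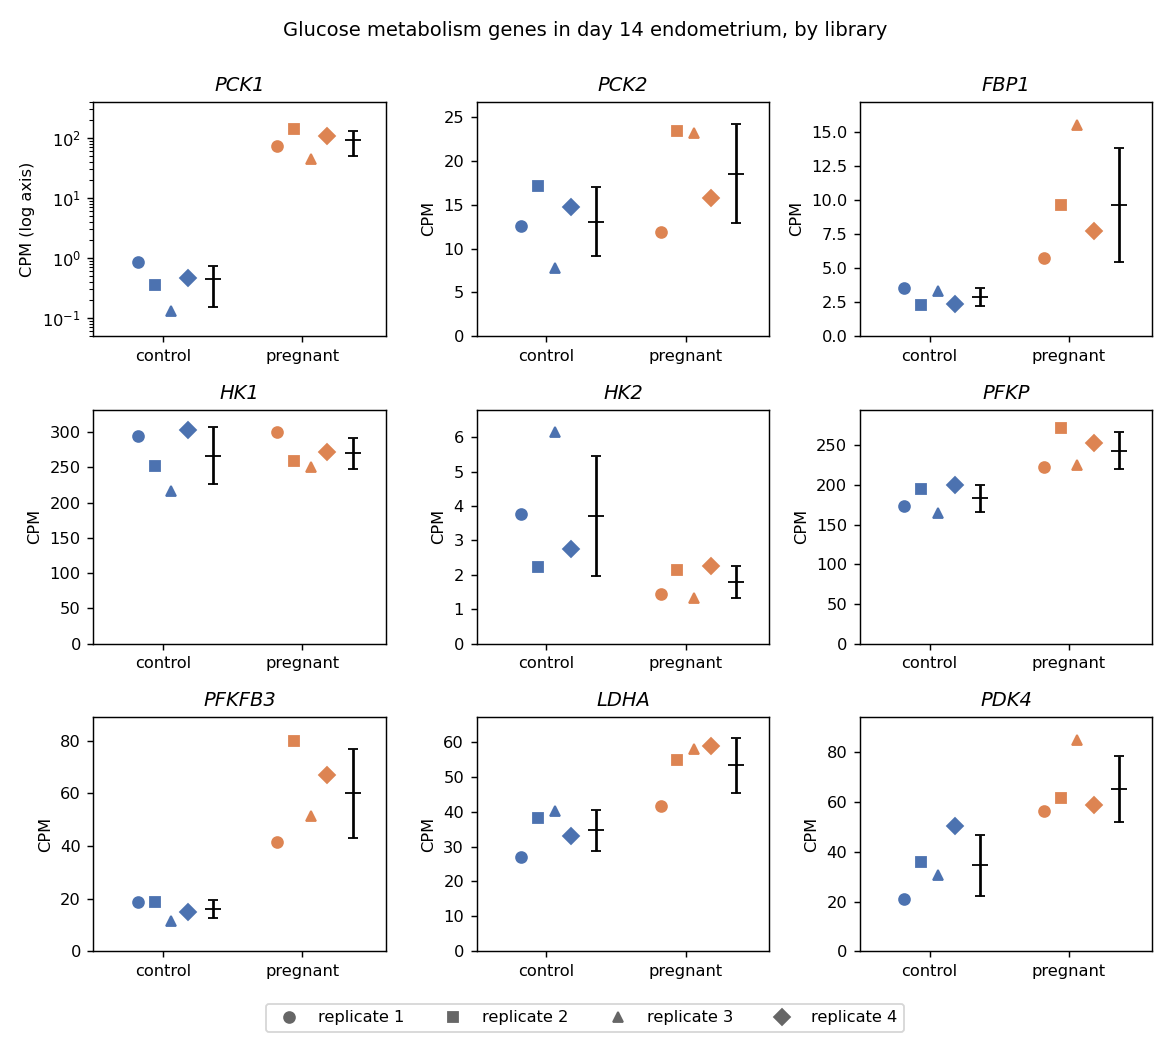
Level of each gene in every library, in CPM, for control (blue) and pregnant (orange) gilts; symbols mark the replicate and black bars the mean ± SD (n = 4), and the PCK1 panel has a log axis. All pregnant libraries lie above all controls for PCK1, FBP1, PFKFB3, LDHA, PDK4 and PFKP, and the groups overlap for PCK2, HK1 and HK2.

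PCK1 (Entrez gene 100144531; Sscrofa10.2 chromosome 17, 65094782 to 65100750, 10 exons) makes PEP from oxaloacetate in the cytosol. Controls, from replicate 1 to replicate 4, held 25, 12, 4 and 16 reads of it, and pregnant libraries in the same order held 2068, 5312, 1345 and 3596. In CPM the controls were at 0.848, 0.359, 0.133 and 0.458 and the pregnant libraries at 73.2, 139, 44.5 and 109.7. Every control had some reads, and the lowest pregnant library was far above the highest control. The log2 change was 7.67 ± 0.53, about 203-fold, the 12th largest rise of the 18783 transcripts. Animals within a group also differed: the highest library was 6.39 times the lowest among controls, where few reads limit precision, and 3.12 times the lowest among pregnant gilts.

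PCK2 (Entrez gene 403165; chromosome 7, 80458493 to 80468913) encodes the mitochondrial form of the same enzyme. It was at 12.6, 17.2, 7.83 and 14.7 CPM in controls and 11.9, 23.4, 23.3 and 15.7 CPM in pregnant libraries, and the groups overlapped. Its log2 difference of 0.51 ± 0.27 did not pass (edgeR adjusted p = 0.219, 95% interval −0.10 to 1.11, not adjusted for the number of transcripts). A moderate rise therefore lies within the error.

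The makeup of PEP carboxykinase messenger RNA differed between the groups. This restates the rise by which PCK1 was selected, since the difference in PCK2 did not pass. Scaled to transcript length, PCK1 made up 5.68%, 1.83%, 1.49% and 2.71% of the sum of both genes in controls, and 84.6%, 84.1%, 63.1% and 86.2% in pregnant gilts. The sum itself was 5.82 ± 1.75 CPM per kb in controls and 43.3 ± 16.4 CPM per kb in pregnant gilts. Pregnant replicate 3, with the lowest PCK1 of its group and PCK2 close to the group's highest, had the lowest share.

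FBP1 (Entrez gene 397038; chromosome 10, 31712559 to 31829431) removes a phosphate from fructose bisphosphate, the step that opposes phosphofructokinase. Controls were at 3.53, 2.25, 3.32 and 2.38 CPM and pregnant libraries at 5.77, 9.66, 15.5 and 7.72 CPM. All pregnant values lay above all controls, and the spread was wider in pregnant gilts. FBP1 rose by 1.75 ± 0.31 (edgeR adjusted p = 0.00248), and it passed in all 16 alternative settings. Its order among pregnant animals was not that of PCK1, since pregnant replicate 3 was the highest for FBP1 and the lowest for PCK1. The muscle form FBP2 was low in both groups, at 0.353 ± 0.126 and 0.486 ± 0.116 CPM, and did not pass (log2 difference 0.46 ± 0.39, edgeR adjusted p = 0.444).

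PFKFB3 (Entrez gene 100516289; chromosome 10, 70831770 to 70855211) makes the sugar bisphosphate that activates phosphofructokinase and inhibits fructose bisphosphatase. It was at 18.5, 18.7, 11.7 and 14.7 CPM in controls and 41.7, 79.9, 51.5 and 66.9 CPM in pregnant libraries, with no overlap. It rose by 1.91 ± 0.22 (edgeR adjusted p = 2.19e-04) and passed in all 16 alternative settings. Pregnant replicate 2 was the highest library for PFKFB3, as it was for PCK1, PCK2 and PFKP. Among controls PFKFB3 was highest in replicate 2 and PCK1 in replicate 1. Its relatives PFKFB2 and PFKFB4 did not pass, with log2 differences of 0.31 ± 0.16 and 0.33 ± 0.18 (edgeR adjusted p = 0.212 and 0.23), and PFKFB1 had next to no reads. The length-scaled share of PFKFB3 in this family was 60.7 ± 5.02% in controls and 81.8 ± 4.02% in pregnant gilts.

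PFKP (Entrez gene 100521394; chromosome 10, 73581109 to 73608900), the platelet-type phosphofructokinase, was the most abundant of the 9 genes per kb of transcript. Controls were at 173, 195, 165 and 199 CPM and pregnant libraries at 222, 271, 226 and 253 CPM. The groups did not overlap, yet the rise was small, 0.41 ± 0.12 (edgeR adjusted p = 0.0315). The call was lost when control replicate 3, pregnant replicate 2 or pregnant replicate 4 was dropped (edgeR adjusted p = 0.0782 to 0.101), and the alternatives spanned 0.0102 to 0.101. The other phosphofructokinases had the opposite sign. The muscle type PFKM fell by 0.91 ± 0.21 on the log2 scale (edgeR adjusted p = 0.0112), and the liver type PFKL, at 166 ± 18.04 and 130.1 ± 12.1 CPM, did not pass (adjusted p = 0.0591, and 0.0412 without control replicate 4). PFKP made up 60.02 ± 4.64% of the family per kb in controls and 72.5 ± 2.58% in pregnant gilts.

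HK1 (Entrez gene 100152344; chromosome 14, 78486932 to 78521250), the hexokinase of most tissues, was at 295, 251, 217 and 303 CPM in controls and 300.02, 258, 249.9 and 271 CPM in pregnant libraries. The ranges overlapped, and the log2 difference of 0.02 ± 0.13 did not pass (edgeR adjusted p = 0.941). Its 95% interval of −0.28 to 0.31 leaves room for changes of that size.

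HK2 (Entrez gene 494561; chromosome 3, 71331771 to 71407447), the hexokinase of muscle and fat, was at 3.76, 2.22, 6.14 and 2.75 CPM in controls and 1.45, 2.14, 1.32 and 2.26 CPM in pregnant libraries. Control replicate 2 lay below the highest pregnant value. The log2 difference was −1.04 ± 0.35 and did not pass (edgeR adjusted p = 0.0542). It passed with DESeq2 (adjusted p = 0.022) and when control replicate 2 (0.0299) or control replicate 4 (0.0465) was dropped. The alternatives spanned 0.022 to 0.163, and the log2 difference was −0.69 with the highest control, replicate 3, left out.

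A pair of other hexokinases rose instead. HK3, known from white blood cells, rose by 1.08 ± 0.17, from 58.9 ± 9.15 to 124 ± 29.9 CPM (edgeR adjusted p = 0.00149). Its exons overlap those of UNC5A on the opposite strand, and the library preparation the labels describe keeps no mark of strand, so reads of the 2 genes may be mixed and this value is uncertain. All 4 tested macrophage and dendritic cell markers rose as well (3 when pregnant replicate 2 or 3 was dropped), and their summed level was 138 to 213 CPM in controls and 319 to 413 CPM in pregnant libraries. Their part in the HK3 result was not tested. HKDC1, a hexokinase of epithelia, rose by 1.38 ± 0.37, from 6.12 ± 3.41 to 16.03 ± 3.54 CPM (adjusted p = 0.022), a call that ended when replicate 1 of either group or pregnant replicate 4 was dropped (adjusted p = 0.054 to 0.0704). The share of HK1 in the family per kb was 78.4 ± 1.56% in controls and 65.04 ± 5.15% in pregnant gilts, and that of HK3 17.2 ± 1.87% and 29.4 ± 6.304%.

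LDHA (Entrez gene 407245; chromosome 2, 43898276 to 43909455), the lactate dehydrogenase subunit of glycolytic tissue, was at 27.05, 38.3, 40.2 and 33.2 CPM in controls and 41.7, 54.7, 57.98 and 58.7 CPM in pregnant libraries. The groups came close, with the lowest pregnant library just above the highest control. LDHA rose by 0.62 ± 0.16 (edgeR adjusted p = 0.0184). Dropping pregnant replicate 2, 3 or 4 ended the call (adjusted p = 0.052 to 0.0549), and the alternatives spanned 0.00238 to 0.0549. The heart-type subunit LDHB did not pass (log2 difference 0.03 ± 0.17, adjusted p = 0.936) and remained the more abundant per kb, so that LDHA went from 14.1 ± 2.19% to 20.1 ± 3.12% of both.

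PDK4 (Entrez gene 100286778; chromosome 9, 82625082 to 82638262) switches off pyruvate dehydrogenase, the gate from pyruvate to the citrate cycle. It was at 20.8, 36.1, 30.7 and 50.5 CPM in controls and 56.3, 61.5, 85.07 and 58.7 CPM in pregnant libraries, without overlap. It rose by 0.92 ± 0.24 (edgeR adjusted p = 0.0212). Dropping replicate 3 of either group ended the call (adjusted p = 0.0603 for the control and 0.0632 for the pregnant library), and the alternatives spanned 0.00281 to 0.0632. Of its relatives PDK3 rose by 0.70 ± 0.17 (adjusted p = 0.0131). PDK1 (0.68 ± 0.23, adjusted p = 0.0575) passed with DESeq2 (0.0217) and without control replicate 4 (0.0261). PDK2, which had the highest mean level of the family per kb in both groups, did not pass (0.12 ± 0.12, adjusted p = 0.523).

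**Figure D2:**
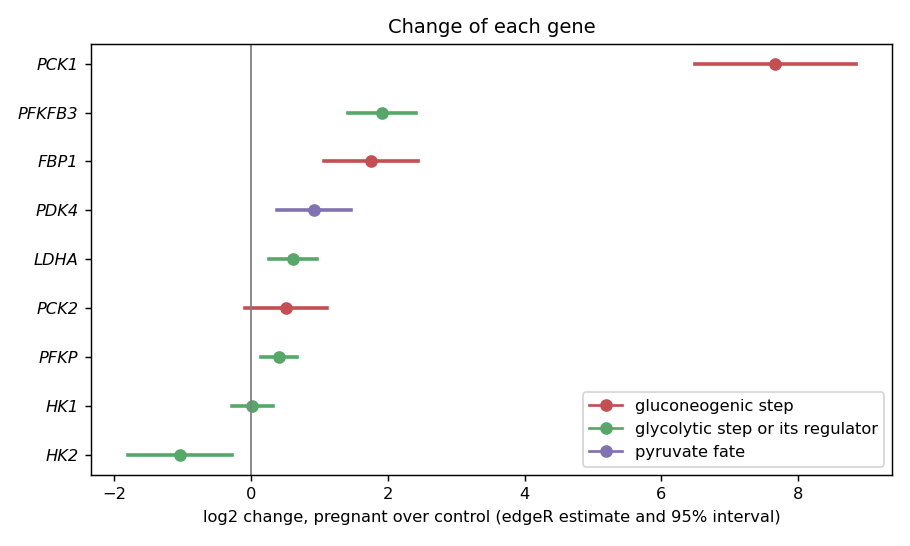
Log2 change of each gene, pregnant over control, as the edgeR estimate with its 95% interval, which is not adjusted for the number of transcripts tested; colours mark the step each gene serves. PCK1 stands at 7.67, PFKFB3 and FBP1 at 1.91 and 1.75, and HK2 at −1.04.

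Levels were compared between genes in CPM per kb of transcript model. Models differ in how much of the untranslated ends they hold, so this order is approximate. In controls the order was PFKP (107 ± 9.85), HK1 (89.04 ± 13.5), LDHA (20.6 ± 3.503), PFKFB3 (10.1 ± 2.14), PDK4 (9.73 ± 3.48), PCK2 (5.65 ± 1.72), FBP1 (2.304 ± 0.522), HK2 (1.19 ± 0.557) and PCK1 (0.173 ± 0.115). The libraries overlapped between the neighbours PFKP and HK1, PFKFB3 and PDK4, PDK4 and PCK2, and FBP1 and HK2. In pregnant gilts PCK1 ranked 4 of 9, at 35.3 ± 15.9, between PFKFB3 (38.1 ± 10.7) and LDHA (31.7 ± 4.69), and overlapped with both. HK2 was then the lowest, at 0.575 ± 0.152, below every library of FBP1 (7.76 ± 3.37).

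Opposing enzymes (FBP1 over PFKP, PCK1 over PKM) and isozymes of the same step (PCK1 over PCK2, HK2 over HK1, LDHA over LDHB, PDK4 over the other PDK genes) were also set against each other within each library, as log2 ratios per kb. These 6 ratios are descriptions of genes chosen for their changes and carry no test. FBP1 over PFKP was −5.16, −5.98, −5.17 and −5.93 in controls and −4.81, −4.35, −3.41 and −4.57 in pregnant libraries, so PFKP remained far more abundant in both groups. PCK1 over PKM, the pyruvate kinase of most tissues, was −9.31, −10.12, −11.74 and −10.16 in controls and −2.28, −1.40, −2.92 and −1.64 in pregnant libraries. Even at its highest, PCK1 stayed below pyruvate kinase. Pregnant minus control, the mean log2 ratio differed by 0.61 for LDHA over LDHB, 0.73 for PDK4 over the sum of PDK1 to PDK3, and −1.01 for HK2 over HK1. The PDK4 difference was 0.48 without control replicate 1, and the HK2 difference was −0.64 without control replicate 3. The groups did not overlap in any of the 6 ratios, and the share of other gene pairs that would separate was not computed. Some came close. The highest control and lowest pregnant library were at −0.77 and −0.74 for PDK4, and at −2.36 and −2.29 for LDHA over LDHB. For HK2 over HK1 the lowest control was at −6.88 and the highest pregnant library at −6.97.

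**Figure D3:**
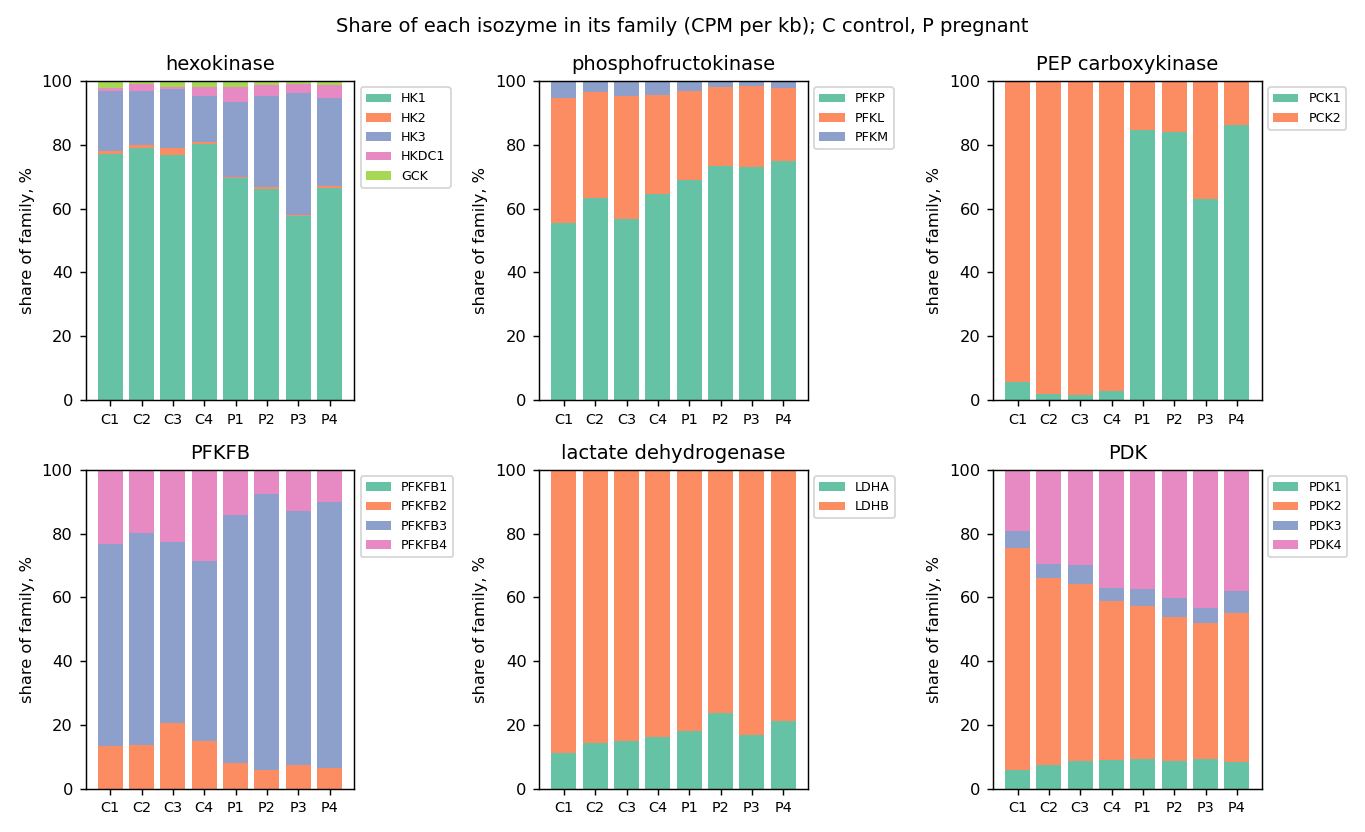
Share of each gene in the length-scaled sum of its enzyme family (percent) in control libraries C1 to C4 and pregnant libraries P1 to P4. PCK1 fills 63.1% to 86.2% of PEP carboxykinase in pregnant gilts and 1.49% to 5.68% in controls, and the shares of PFKFB3, PFKP, LDHA and PDK4 are larger in pregnant gilts.

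The rest of the pathway did not move in one direction. Of 21 other tested glycolysis genes 3 rose and 4 fell, with a median log2 change of −0.06 beside −0.02 over all transcripts tested. Those that rose were HK3, HKDC1 and PGK1, a kinase that yields ATP (0.34 ± 0.10, edgeR adjusted p = 0.0336). Those that fell were PFKM, phosphoglycerate mutase PGAM1 (−0.58 ± 0.11, adjusted p = 0.00387), PKM (−0.45 ± 0.12, adjusted p = 0.0249) and aldolase ALDOC (−0.92 ± 0.29, adjusted p = 0.0438). GAPDH (−0.26 ± 0.12) and enolase ENO1 (0.26 ± 0.15) did not pass (adjusted p = 0.158 and 0.26). PKM, PGK1 and ALDOC were close to the threshold and failed it without any 1 of 6, 6 and 7 of the 8 libraries (adjusted p = 0.0529 to 0.0692, 0.0515 to 0.0953 and 0.0732 to 0.124). PKM passed without control replicate 2 or 3, PGK1 without control replicate 1 or pregnant replicate 1, and ALDOC without control replicate 4. The count of genes that rose was 1 without pregnant replicate 4, and that of genes that fell was 2 without control replicate 1 or any 1 pregnant replicate.

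Of 10 other tested gluconeogenesis genes 1 rose and 2 fell (median log2 change −0.10). GOT2, the mitochondrial aspartate aminotransferase, rose by 1.43 ± 0.19 (edgeR adjusted p = 4.82e-04). Pyruvate carboxylase PC, which makes oxaloacetate, had a log2 change of −0.74 ± 0.23 (adjusted p = 0.0412) and the cytosolic aminotransferase GOT1 of −0.46 ± 0.14 (adjusted p = 0.0387). Neither fall was firm. PC lost its call when any 1 library other than control replicate 4 or pregnant replicate 3 was dropped (adjusted p = 0.0706 to 0.108) and with limma voom (0.0517). GOT1 lost it when any 1 library other than replicate 4 of either group was dropped (0.0534 to 0.109) and without the filter (0.0504). The count that fell was 0 when pregnant replicate 1 or 2, or any control but replicate 4, was dropped, and 1 without pregnant replicate 3 or 4, with limma voom or without the filter. The subunit G6PC3 of the glucose phosphatase found in most tissues did not pass (−0.14 ± 0.15, adjusted p = 0.561). The liver form is not analysed here.

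**Figure D4:**
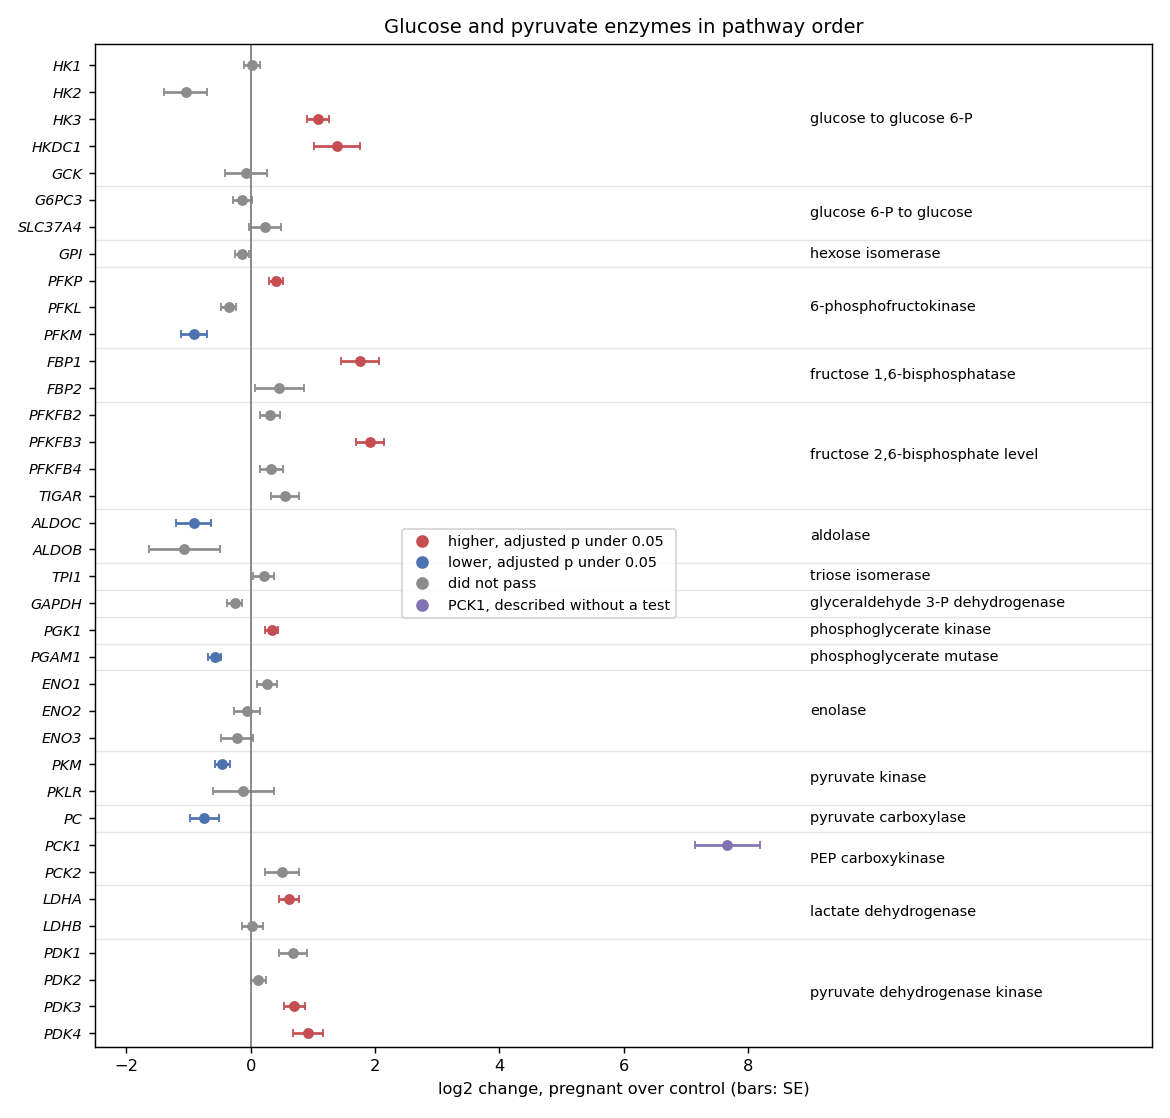
Log2 change ± SE of the enzymes of glucose and pyruvate metabolism in pathway order (red higher and blue lower at an edgeR adjusted p under 0.05, grey did not pass, purple PCK1 without a test). At the phosphofructokinase step PFKP was higher and PFKM lower, and PCK1 stands apart at 7.67.

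Among 12 tested genes of pyruvate entry and pyruvate dehydrogenase 1 rose (PDK3) and 0 fell, with a median log2 change of 0.01. At an unadjusted p under 0.05 the edgeR test gave no gene that fell, and DESeq2 and limma voom passed 0. With DESeq2 or without control replicate 4 the count that rose was 2, when PDK1 joined PDK3. Of 14 glycogen genes 1 rose and 0 fell (median −0.12). UGP2, which makes the activated glucose for glycogen, rose by 0.82 ± 0.21 (adjusted p = 0.0194; 0.0592 without pregnant replicate 4), and the muscle phosphorylase PYGM was at −0.68 ± 0.22 (adjusted p = 0.0514; it passed with DESeq2, 0.0268, and without control replicate 4, 0.016). By the unadjusted edgeR p 2 glycogen genes were lower, PYGM and PPP1R3B, and limma voom called 0 lower.

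Of 7 pentose phosphate genes 2 rose and 0 fell (median −0.04). PGD, an enzyme that yields NADPH, rose from 188 ± 36.7 to 545 ± 37.3 CPM (1.53 ± 0.15, edgeR adjusted p = 6.71e-05) and transaldolase TALDO1 by 0.58 ± 0.12 (adjusted p = 0.00683). By the unadjusted edgeR p 1 gene was lower, and DESeq2 and limma voom called 0 lower. TKT did not pass (0.20 ± 0.15, adjusted p = 0.359), but rose without control replicate 1 (adjusted p = 0.0392), and its exons overlap those of another gene.

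Of 9 polyol, fructose and glycerol genes 1 rose and 4 fell (median −0.47). AKR1B1, aldose reductase, which turns glucose into sorbitol, rose by 1.57 ± 0.24 (edgeR adjusted p = 0.00113), and sorbitol dehydrogenase SORD, which turns sorbitol into fructose, fell by 0.92 ± 0.20 on the log2 scale (adjusted p = 0.00749). The glycerol genes GPD1L (−0.87 ± 0.17, adjusted p = 0.00412) and GK (−1.03 ± 0.29, adjusted p = 0.0284) and the triokinase TKFC (−0.47 ± 0.15, adjusted p = 0.0405) also fell. GK lost its call when control replicate 3 or pregnant replicate 2, 3 or 4 was dropped (adjusted p = 0.0523 to 0.0805). TKFC lost it when any 1 library other than control replicate 4 or pregnant replicate 1 was dropped (0.067 to 0.116) and without the filter (0.0538). The count that fell was 2 without control replicate 3 or pregnant replicate 2, 3 or 4.

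Of 15 citrate cycle genes 1 rose and 3 fell (median −0.16). SUCLA2 rose by 0.69 ± 0.17 (edgeR adjusted p = 0.0146). Among those that fell were OGDH (−0.77 ± 0.19, adjusted p = 0.0139) and IDH2 (−0.38 ± 0.11, adjusted p = 0.0328). IDH2 lost its call when any 1 library other than control replicate 4 or pregnant replicate 3 was dropped (0.0673 to 0.0992) and without the filter (0.0534), and OGDH shares exonic bases with TMED4 on the opposite strand.

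Regulators known to act on PCK1 and glucose genes were read too. Of 22 tested 4 rose and 1 fell (median log2 change 0.09). The share called was thus near the 21.3% of all transcripts tested. PPARGC1A, KLF15, NR4A1 and IRS2 were not found by symbol. CEBPA, a transcription factor of liver and fat, rose by 1.09 ± 0.22 (edgeR adjusted p = 0.00466), the orphan receptor gene NR4A3 by 2.48 ± 0.68 (0.0252), the insulin receptor gene INSR by 0.58 ± 0.15 (0.0182) and TXNIP, a brake on glucose uptake, by 0.54 ± 0.16 (0.0391). HNF4A, a hepatic nuclear receptor, fell by 2.52 ± 0.57 on the log2 scale (0.00974), but not with limma voom (0.0548). It was low, at 0.881, 6.44, 2.46 and 6.41 CPM in controls, and control replicate 1 lay below pregnant replicate 2 (0.888 CPM), so the groups overlapped. FOXO1 (0.51 ± 0.18, 0.0636) passed with DESeq2 (0.0333), and CEBPB (−0.08 ± 0.18, 0.78) and HIF1A (0.16 ± 0.19, 0.598) did not pass. NR4A3 was lost without control replicate 2 or pregnant replicate 3 (adjusted p = 0.0605 and 0.085) with a log2 change of 1.69 without the latter, INSR without pregnant replicate 2 (0.0612), and TXNIP without any 1 library other than replicate 4 of either group (0.0675 to 0.0948). The count that rose was 2 without control replicate 2, pregnant replicate 2 or pregnant replicate 3.

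Known hypoxia targets include LDHA, PDK1, PFKFB3, HK2 and PKM. Their log2 changes were 0.62, 0.68, 1.91, −1.04 and −0.45, and PDK1 and HK2 did not pass by edgeR. Also read were 14 hypoxia-induced genes outside glycolysis. Of these 14 genes 4 rose and 0 fell (median 0.40), beside 11.2% higher and 10.1% lower among all transcripts tested. BHLHE40 rose by 2.21 ± 0.23 (edgeR adjusted p = 9.72e-05), BNIP3 by 0.70 ± 0.12 (0.00266), ANKRD37 by 1.01 ± 0.25 (0.0147) and KDM3A by 0.64 ± 0.17 (0.0209; 0.0505 to 0.0606 without control replicate 3 or pregnant replicate 3 or 4). Other members, such as VEGFA (0.28 ± 0.14, adjusted p = 0.173), did not pass. By the unadjusted edgeR p 2 were lower, CA12 and P4HA2, and DESeq2 and limma voom called 0 lower, while P4HA2 (−0.42 ± 0.17, adjusted p = 0.0964) passed as lower without control replicate 2. The part of hypoxia in these changes was not tested.

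PCK2 is a known target of the amino acid response factor ATF4. Of 11 tested ATF4 and serine synthesis genes 2 rose and 1 fell (median −0.15). The folate enzyme MTHFD2 rose from 3.42 ± 0.885 to 11.9 ± 1.35 CPM (edgeR adjusted p = 2.07e-04) and the cysteine synthesis gene CTH from 6.05 ± 2.33 to 18.4 ± 6.48 CPM (adjusted p = 0.00341). PHGDH, which draws carbon from glycolysis into serine, fell from 716 ± 198 to 171 ± 95.4 CPM (adjusted p = 0.00382). ATF4 itself did not pass (−0.07 ± 0.12, adjusted p = 0.731) and its exons overlap those of another gene. The count that fell was 2 without control replicate 4, when the serine synthesis gene PSPH joined PHGDH. ASNS (0.60 ± 0.25, adjusted p = 0.115) passed without pregnant replicate 1 (0.0485).

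**Figure D5:**
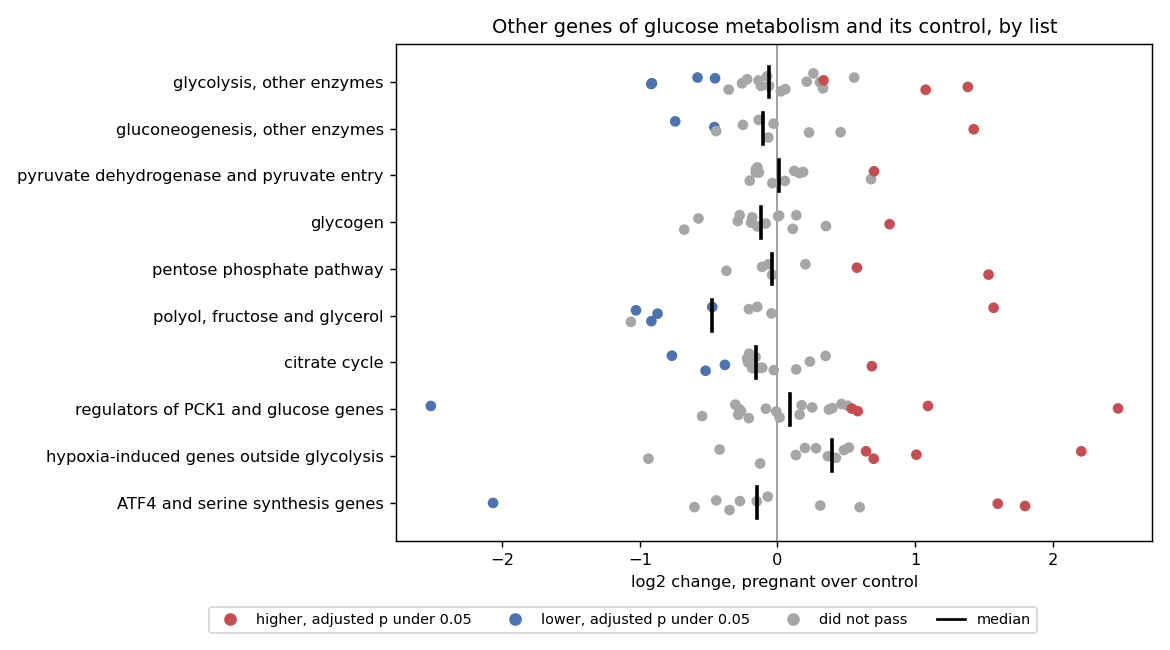
Log2 change, pregnant over control, of every tested gene in 10 lists around glucose metabolism, with the 9 main genes left out; red and blue points passed an edgeR adjusted p under 0.05 as higher or lower, grey points did not, and black bars are medians. Over all lists 20 genes rose and 15 fell of 135, which is 25.9% beside 21.3% of all transcripts tested.

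Markers of liver, fat and kidney, where PCK1 is best known, were read in the same libraries. ALB, the defining hepatocyte transcript, had 10 reads in all controls together and 20 in all pregnant libraries, and ADIPOQ of fat cells had 2 and 2. The summed level of the 4 adipocyte markers found was 0.569 to 0.830 CPM in controls and 0.888 to 1.06 CPM in pregnant libraries. PCK1 itself ran from 0.133 to 0.848 CPM in controls and from 44.5 to 139 CPM in pregnant libraries. Of 3 tested hepatocyte markers AHSG rose (100 reads in all controls together and 532 in all pregnant libraries) and FGB fell (365 and 187). The FGB call ended when control replicate 2 or pregnant replicate 2 or 4 was dropped. The hepatocyte list's sum of 160 to 304 and 135 to 307 CPM was mostly APOA1. The 4 kidney tubule markers found summed to 47.1 to 118 CPM and 33.0 to 97.7 CPM. LRP2 held the most reads (7839 in all controls together and 6764 in all pregnant libraries). CUBN had 391 and 824, SLC5A2 304 and 278, and SLC22A6 120 and 73. By edgeR, DESeq2 or limma voom 0 of 4 passed, nor was any under an unadjusted edgeR p of 0.05, while 1 passed as higher without control replicate 4. The part of these cell types in the PCK1 result was not tested. CDX2, a marker of trophectoderm (the outer layer of the conceptus), had 0 reads in controls and 4 in pregnant libraries, all in 1 of them. IFNG had 4 reads in all controls together and 26 in all pregnant libraries, and HAND1 4 and 16. Both had reads in 2 controls and 4 pregnant libraries. CYP17A1 had 11 and 7 reads, and none of these genes was tested. Of the 3 tested trophectoderm markers GATA3 rose. The trophectoderm list summed to 22.1 to 46.04 CPM in controls and 26.9 to 40.7 CPM in pregnant libraries. SLCO2A1 held most of its reads (3002 and 3319).

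Among markers of other cell types found in the tissue, some lists differed between the groups and others did so little. Of all transcripts tested, 11.2% passed as higher and 10.1% as lower. Of 5 tested epithelial markers 1 rose and 3 fell (summed level 2012 to 3013 CPM in controls and 1350 to 1884 CPM in pregnant libraries), of 5 smooth muscle markers 3 fell (4 when control replicate 3 or pregnant replicate 1 was dropped; 659 to 1063 and 407 to 614 CPM), and all 6 T and NK cell markers rose (5 when any 1 library other than replicate 1 of either group was dropped; 19.8 to 53.3 and 113 to 194 CPM). Of 3 tested neutrophil markers 3 rose, and their list summed to 0.339 to 2.204 and 137 to 508 CPM. In pregnant libraries this sum was mostly S100A9 (58 reads in all controls together and 39663 in all pregnant libraries). S100A12 had 69 and 2300 reads and S100A8 12 and 270. MPO had 0 reads in all 8 libraries, and CSF3R and FCGR3A were not found by symbol. Of 5 stromal markers LUM rose and COL3A1 fell (23208 to 27796 and 14378 to 21205 CPM). The LUM call ended when control replicate 2 or 3 or pregnant replicate 2, 3 or 4 was dropped, and the COL3A1 call when control replicate 3 or 4 or pregnant replicate 2 was dropped. Of 4 endothelial markers 1 rose (2 without control replicate 4; 509 to 970.2 and 714 to 1022 CPM), and 0 of 3 erythrocyte markers passed by edgeR, DESeq2 or limma voom, with 1 lower by the unadjusted edgeR p (221 to 521 and 167 to 803 CPM). The part of these shifts in the changes of the 9 genes was not tested.

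The named transcripts whose profile over the 8 libraries was most like that of PCK1, by the root mean square difference of centred log2 CPM, were SAA3 (0.68), IDO1 (0.84), WNT7B (0.85), NPY (0.93) and CXCL10 (0.97). They encode an acute-phase protein, a tryptophan-degrading enzyme, a WNT ligand, neuropeptide Y and an interferon-induced chemokine. Of these, NPY had no reads in controls, and SAA3, IDO1 and WNT7B had at most 0.712 CPM there. PCK1 was low in controls too (0.133 to 0.848 CPM), so all these distances depend on the prior count of 2. The distances cover both groups and so also depend on the size of the group difference, by which PCK1 was chosen. The log2 changes of SAA3, IDO1, WNT7B, NPY and CXCL10 were 7.46, 8.34, 7.71, 13.08 and 7.27. Within the pregnant group NPY, like PCK1, was highest in replicate 2 and lowest in replicate 3 (49.8 and 11.5 CPM), SAA3 was also lowest in replicate 3 (46.9 CPM) and WNT7B also highest in replicate 2 (72.4 CPM). IDO1 and CXCL10 were highest in replicate 3 (189 and 1578 CPM), the library lowest for PCK1.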

How the data were processed

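Poly(A) RNA of 8 endometrium libraries was sequenced. Values are the authors' counts of reads on each transcript of a merged assembly, not normalized, per the file headers, and 2 deposited annotation files give exon positions (unit other). Per the submitters' processing notes the build was Sscrofa10.2 and the tools were TopHat 1.4, Cufflinks 1.3, CASAVA 1.6 and DESeq. The counting tool is not given in the sources used here. Reads of shared exons may be counted for several isoforms, and the library kit described in the labels did not mark strand. Symbols came from a RefSeq table of Sscrofa11.1, for names only: 16270 genes matched by Entrez ID, 103 more by accession, and 4691 had none. Positions are those of the deposited annotation, counted from 1.

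Of 24139 transcripts, the 18783 left by the filter on low counts (filterByExpr, minimum count of 10) were tested. They entered a robust quasi-likelihood fit with group as the only term (edgeR 4.0.16, R 4.3.3, TMM factors), with Benjamini-Hochberg adjustment over all of them. SE come from the F statistic. DESeq2 1.42.0, limma voom 3.58.1, other size factors, other filters, 1 transcript per gene, a replicate term and leaving out each library were alternatives. Scripts were tested on simulated data. P-values measure the spread between 4 animals per group.

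The members and lists were chosen with earlier results of these data known. Named were all 9 members, up to 4 genes per list with the smallest p, fixed comparison genes, and the 5 transcripts most like PCK1 with an average log2 CPM of at least 1. ALDOC, TKFC, TXNIP, VEGFA, CA12, P4HA2, PSPH and the marker genes lie outside that rule and were picked once their values were known. Some genes that the rule names are not reported here. No set test was run.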

Additional observations from a re-analysis of the deposited data

Results flagged for a closer look

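Within groups of 4, 11 of 148 sets of values had 1 library far from the other 3 (Dixon's test at 95%), where chance gives about 1 in 20. Of the ratios between members, the log2 ratio of PCK1 over PCK2 stood at 0.77 in pregnant replicate 3, where the other pregnant libraries lay between 2.41 and 2.64. Among the other named genes, high single libraries were control replicate 2 for PPP1R3B (46.9 CPM), control replicate 1 for TKT (221 CPM) and AKR1B1 (42.6 CPM), pregnant replicate 2 for AKR1B1 (146.9 CPM), pregnant replicate 3 for SORD (11.05 CPM) and NR4A3 (6.15 CPM), and control replicate 4 for PFKFB1 (0.0286 CPM, the other controls having none). Low single libraries were pregnant replicate 4 for G6PC3 (27.8 CPM), pregnant replicate 1 for PGK1 (78.6 CPM) and control replicate 4 for FOXO1 (44.6 CPM). No CPM profile of the 9 main genes was marked in this way.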

How the results depend on the processing

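PCK1 kept its direction in all 16 alternatives run (log2 change 7.38 to 8.15), FBP1 and PFKFB3 kept theirs and stayed past the threshold (1.43 to 1.94 and 1.75 to 2.06), and PCK2 kept its direction without passing (0.32 to 0.67). Leaving out 1 library in turn gave log2 changes of 0.353 to 0.452 for PFKP, 0.541 to 0.722 for LDHA, 0.761 to 1.16 for PDK4, −1.22 to −0.692 for HK2 and −0.0698 to 0.0921 for HK1, and −0.344 to 0.0044 for GPT, −0.135 to 0.114 for LDHB and −0.2103 to 0.0330 for CEBPB. HK2 was at −1.03 with DESeq2, so that 1 member was called lower there and without control replicate 2 or 4, beside 0 otherwise. HK1 changed sign without control replicate 2 (−0.0049) or 3 (−0.0698) or pregnant replicate 1 (−0.0344), GPT without control replicate 1 (0.0044), LDHB without control replicate 4 (−0.0660) or pregnant replicate 3 (−0.135) and CEBPB without control replicate 1 (0.0330) or pregnant replicate 4 (0.0159), none past the threshold. Without 1 library each, the count of members called higher was 4 to 6, that of list genes 16 to 21 higher and 8 to 17 lower, and that of all transcripts 1599 to 2110 higher and 1265 to 2017 lower. The cause was not tested. PC and GOT1 did not pass with the replicate block (adjusted p = 0.0614 and 0.0736), nor did PGK1 (0.059), ALDOC (0.1) and TXNIP (0.0568), and COL3A1 lost its call, while with this block P4HA2 passed as lower and 1 kidney tubule marker as higher. ALDOC also failed with limma voom (0.0808). The block gave 2070 higher and 1813 lower transcripts, beside 2111 and 1898, and 6 members higher. The labels state no pairing of animals by replicate number. Deviations of same-numbered animals correlated at 0.186, −0.0932, −0.0318 and 0.0854, and 2 of 4 matched best with their own number. So few values cannot decide on pairing. A second transcript per member could not be tried, since each has 1.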
